A study of Mus musculus with 6 samples.

Results

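Bcl2l11, Perp, Gadd45a and Sesn3, genes of cell death and stress control that FOXO factors or p53 are known to induce, were followed on 6 one-colour oligonucleotide arrays of cultured mouse T cells. All probe sets annotated to these 4 genes were taken. There were 9 of them among 45037 probe sets that are not controls, namely 5 for Bcl2l11, 2 for Sesn3 and 1 each for Perp and Gadd45a. The 4 genes are 4 of the 17097 genes that had a probe set with 1 symbol. They were picked with their changes in the comparisons below already known, so their values are given as a description, with no p-value.

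Every culture held CD4-positive, CD25-negative T cells of female C57BL/6 mice, whose age is not given in the sources used here, kept for 4 days with recombinant human TGF-beta at 0.36 ng/ml and mouse IL-2 at 10 ng/ml. In the BTNL2 wells the plate was coated with anti-CD3 antibody 2C11 at 2 µg/ml, B7-2 Fc fusion protein at 3 µg/ml and BTNL2 Fc fusion protein at 11 µg/ml. In the B7-2 wells the coat was anti-CD3 and B7-2 with control IgG, and in the anti-CD3 wells it was anti-CD3 with human IgG. Below, a change with B7-2 is that of the B7-2 against the anti-CD3 wells, and a change with BTNL2 added is that of the BTNL2 against the B7-2 wells. Anti-CD3 triggers the T cell receptor, B7-2 (CD86) is the ligand of CD28 and CTLA-4, and BTNL2 is a butyrophilin-like protein related to B7 ligands. Each group had 2 cultures and 2 arrays. Nothing says that the duplicates came from separate animals, so the p-values below reflect the spread among 6 cultures, which may be technical. One label names spleen as the source and another names spleen and lymph nodes.

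FOXO transcription factors keep resting T cells quiescent. When the T cell receptor and CD28 activate the PI3 kinase pathway, the kinases AKT and SGK1 phosphorylate FOXO proteins and drive them out of the nucleus. p53 is a transcription factor stabilised by DNA damage and other stress, and its targets halt the cell cycle, repair damage or start apoptosis. Bcl2l11 encodes BIM, a BH3-only protein that binds and neutralises BCL2 and its relatives, and it is a FOXO target needed for the death of T cells at the end of a response. Sesn3 encodes sestrin 3, a FOXO-induced member of a family that restrains the growth kinase complex mTORC1. Perp encodes a membrane protein of the PMP22 family that p53 induces in dying cells and that also serves in desmosomes of epithelia. Gadd45a encodes a small p53-induced protein that binds PCNA and the kinase MAP3K4 in the response to stress.

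The sequences just upstream of these genes are printed because the genes are grouped by the factors said to induce them. RefSeq promoter sequences of build GRCm38.p6 matched 3 of the 4 genes, Bcl2l11 (with 2 start sites), Gadd45a and Sesn3. For each start the 250 bases before it are given on the gene's strand. Capitals mark a forkhead motif, GTAAACA or TGTTTAC, or an octamer core, ATTTGCA or TGCAAAT, found on either strand. The octamer was added after the sequences had been read.
Bcl2l11, first start, chr2:128125788-128126037, plus strand: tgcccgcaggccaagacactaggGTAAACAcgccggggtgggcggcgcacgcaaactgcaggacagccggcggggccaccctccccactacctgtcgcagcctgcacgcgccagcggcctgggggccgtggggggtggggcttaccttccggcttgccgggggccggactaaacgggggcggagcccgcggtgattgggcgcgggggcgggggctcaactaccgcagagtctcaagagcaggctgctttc
Bcl2l11, second start, chr2:128127325-128127574, plus strand: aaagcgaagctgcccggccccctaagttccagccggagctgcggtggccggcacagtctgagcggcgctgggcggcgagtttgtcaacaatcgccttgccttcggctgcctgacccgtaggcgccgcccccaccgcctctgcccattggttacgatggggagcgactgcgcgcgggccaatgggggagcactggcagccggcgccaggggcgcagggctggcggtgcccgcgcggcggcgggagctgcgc
Gadd45a, chr6:67037408-67037657, minus strand: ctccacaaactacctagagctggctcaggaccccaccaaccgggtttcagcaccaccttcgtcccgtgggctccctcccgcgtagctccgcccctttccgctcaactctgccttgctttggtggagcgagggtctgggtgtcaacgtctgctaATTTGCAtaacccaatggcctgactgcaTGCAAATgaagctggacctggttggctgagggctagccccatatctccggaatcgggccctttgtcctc
Sesn3, chr9:14276051-14276300, plus strand: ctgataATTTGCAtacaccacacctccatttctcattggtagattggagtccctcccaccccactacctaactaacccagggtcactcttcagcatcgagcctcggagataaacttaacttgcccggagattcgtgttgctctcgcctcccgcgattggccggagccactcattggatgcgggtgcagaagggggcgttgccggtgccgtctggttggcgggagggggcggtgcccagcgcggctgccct

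The forkhead motif was present in 1 of these 4 windows, the first Bcl2l11 start, at bases -227 to -221 counted back from the start. Of 32851 windows of 250 bases, 3.17% held it. The octamer core was found in both orientations in the Gadd45a window, at -97 to -91 and -69 to -63, and at -244 to -238 in the Sesn3 window, against 3.56% of all windows. A p53 half-site, searched by its consensus on both strands, lay at -40 to -31 of the Gadd45a window and in 7.13% of all windows. The CCAAT box, CCAAT or ATTGG, occurred in each of the 4 windows, with 4 copies in the Sesn3 window, and in 33.8% of all windows. None of these motifs overlapped another in the 4 windows. These are matches of letters and not measured binding sites.

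The 6 arrays had median intensities of 18.45 to 18.77, and nonspecific control probe sets read at most 5.02 to 5.99. The 18S ribosomal RNA probe set read 34.0 and 35.6 in the BTNL2 wells, 51.9 and 46.6 in the B7-2 wells, and 29.5 and 31.9 in the anti-CD3 wells. The 3' to 5' ratio of Gapdh was 1.40 and 1.43 in the BTNL2 wells, 1.28 and 1.33 in the B7-2 wells, and 1.37 and 1.27 in the anti-CD3 wells. The 18S signal was thus highest in the B7-2 wells, where Bcl2l11 was lowest and Perp highest, and its part in those values was not tested. Replicate arrays correlated at r = 0.997 to 0.998 across genes and arrays of different groups at r = 0.974 to 0.987, where genes are not independent replicates. Of the 9 CD4 T cell markers measured, Cd3d read 4073 to 5350 and Cd4 1103 to 1705 over the 6 arrays. Values are intensities on the linear scale of the deposited table, and log2 changes are differences of log2 intensities with their standard errors (SE) from limma. In bulk RNA, fewer cells of a type and less RNA per cell cannot be told apart. The comparisons share groups, so changes in different comparisons are not independent of each other.

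Bcl2l11 had its lowest signal in the B7-2 wells and its highest in the BTNL2 wells, on each of its 5 probe sets. The brightest probe set read 863 and 683 in the BTNL2 wells, 114 and 107 in the B7-2 wells, and 419 and 442 in the anti-CD3 wells. The 3 groups did not overlap, and the BTNL2 duplicates lay further apart than the duplicates of the other groups. With 2 arrays per group a lack of overlap is common. It was found in 55.6% of all 45037 probe sets for B7-2 against anti-CD3, 53.6% for BTNL2 against B7-2 and 57.7% for BTNL2 against anti-CD3. The B7-2 wells were 3.89-fold lower than the anti-CD3 wells (log2 change -1.96 ± 0.13). The BTNL2 wells were 6.94-fold higher than the B7-2 wells (log2 change 2.79 ± 0.13) and 1.78-fold higher than the anti-CD3 wells (log2 change 0.83 ± 0.13). Without the first BTNL2 array the last change was 0.67, and without the second it was 1.00.

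A second bright probe set of Bcl2l11 read 694 and 472 in the BTNL2 wells, 75.1 and 73.2 in the B7-2 wells, and 340 and 359 in the anti-CD3 wells. Its change was 2.95 ± 0.17 for BTNL2 against B7-2 and -2.24 ± 0.17 for B7-2 against anti-CD3. The 3 other probe sets were dim. They read 33.9 to 69.96 in the BTNL2 wells, 6.75 to 12.1 in the B7-2 wells and 17.6 to 27.9 in the anti-CD3 wells, so that their B7-2 values lay just above the nonspecific controls. All 5 gave the same order of the 3 groups. Their log2 changes ran from 1.85 to 2.95 for BTNL2 against B7-2, from -2.24 to -1.22 for B7-2 against anti-CD3 and from 0.62 to 1.34 for BTNL2 against anti-CD3. For B7-2 against anti-CD3 the 3 smaller changes belonged to the dim probe sets, whereas for BTNL2 against anti-CD3 the largest, 1.34, belonged to a dim one. The probe sets share the same RNA and are not replicates.

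Perp had its highest signal in the B7-2 wells and its lowest in the anti-CD3 wells. Its 1 probe set read 260 and 284 in the BTNL2 wells, 711 and 659 in the B7-2 wells, and 166 and 189 in the anti-CD3 wells. The 3 groups did not overlap, where 53.6% to 57.7% of all probe sets had no overlap in a comparison. Signal was 3.86-fold higher in the B7-2 wells than in the anti-CD3 wells (log2 change 1.95 ± 0.11) and 2.52-fold lower in the BTNL2 wells than in the B7-2 wells (log2 change -1.33 ± 0.11). The BTNL2 wells stayed 1.53-fold above the anti-CD3 wells (log2 change 0.61 ± 0.11).

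Gadd45a was lowest in the BTNL2 wells. Its 1 probe set read 27.2 and 24.5 in the BTNL2 wells, 111 and 127 in the B7-2 wells, and 81.7 and 95.6 in the anti-CD3 wells. The BTNL2 values lay far below the other 4. The B7-2 and anti-CD3 wells lay close together without overlap, in a comparison where 55.6% of all probe sets had none. The BTNL2 wells were 4.6-fold lower than the B7-2 wells (log2 change -2.20 ± 0.13) and 3.43-fold lower than the anti-CD3 wells (log2 change -1.78 ± 0.13). The B7-2 wells were 1.34-fold above the anti-CD3 wells (log2 change 0.42 ± 0.13).

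Sesn3 separated the anti-CD3 wells from both others. The brighter of its 2 probe sets read 820 and 683 in the BTNL2 wells, 749 and 753 in the B7-2 wells, and 1902 and 1897 in the anti-CD3 wells. The BTNL2 and B7-2 wells overlapped, with a log2 change of -0.01 ± 0.11 between them. Signal was 2.53-fold lower in the B7-2 wells (log2 change -1.34 ± 0.11) and 2.54-fold lower in the BTNL2 wells (log2 change -1.34 ± 0.11) than in the anti-CD3 wells. The dimmer probe set read 46.5 and 46.8 in the BTNL2 wells, 47.1 and 54.0 in the B7-2 wells, and 80.1 and 83.7 in the anti-CD3 wells, with smaller changes against anti-CD3 of -0.70 ± 0.11 for B7-2 and -0.81 ± 0.11 for BTNL2.

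**Figure D1:**
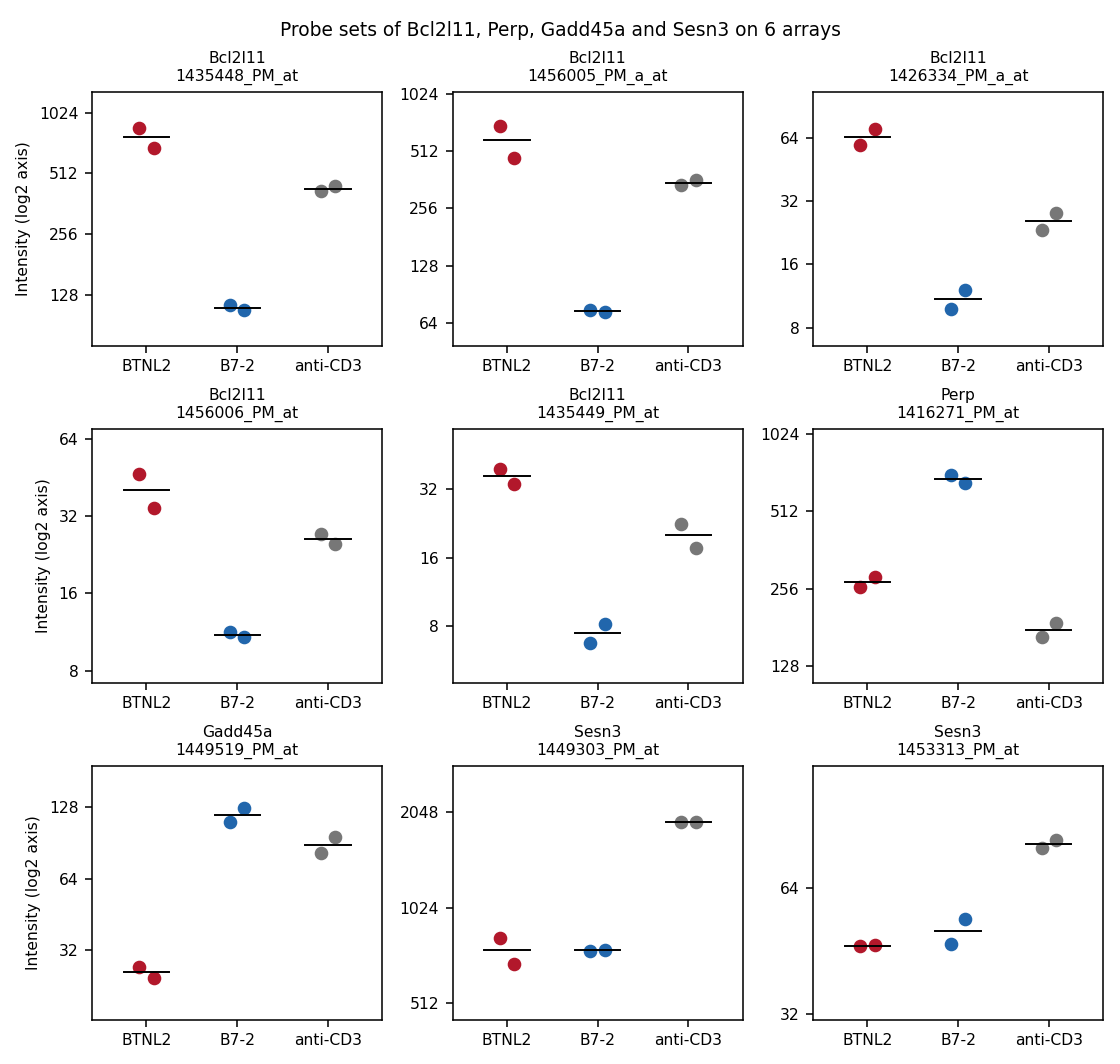
Intensity (log2 axis, with a range of its own in each panel) of the 9 probe sets of Bcl2l11, Perp, Gadd45a and Sesn3 in the BTNL2, B7-2 and anti-CD3 wells. Points are single arrays and lines are means of 2 arrays. All 5 Bcl2l11 panels dip in the B7-2 wells, Perp peaks there, Gadd45a drops to 27.2 and 24.5 in the BTNL2 wells, and Sesn3 is high in the anti-CD3 wells.

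By limma's test over all 45037 probe sets, at an adjusted p under 0.05, 8 of the 9 probe sets were called for B7-2 against anti-CD3, 1 higher and 7 lower, where 17.3% of all probe sets were called, 8.78% higher and 8.56% lower. For BTNL2 against B7-2 it was 7 of 9, with 5 higher and 2 lower, where 13.8% were called, 6.77% higher and 7.04% lower. For BTNL2 against anti-CD3 it was 9 of 9, with 6 higher and 3 lower, where 22.2% were called, 11.5% higher and 10.7% lower. These counts follow from how the genes were picked and are no evidence about them. The probe sets outside these counts were those of Gadd45a for B7-2 against anti-CD3 and both of Sesn3 for BTNL2 against B7-2.

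Most CD8 and NK cell markers and most B cell markers rose with BTNL2 added, as the Bcl2l11 signal was higher there, whereas against anti-CD3 alone 3 of the 4 B cell markers that passed were lower. In this gene-level test 24.5% of all 17097 genes were called for B7-2 against anti-CD3, 20.4% for BTNL2 against B7-2 and 30.4% for BTNL2 against anti-CD3. Of 9 markers of CD8-positive and NK cells, 7 rose and 0 fell in the BTNL2 wells against the B7-2 wells, and 0 rose and 5 fell in the B7-2 wells against the anti-CD3 wells. Their summed intensity was 7114 and 6351 in the BTNL2 wells, 3131 and 3140 in the B7-2 wells, and 3618 and 3751 in the anti-CD3 wells. Most of each sum was 1 marker, Nkg7, at 3988 and 3665, 2816 and 2842, and 2959 and 3036 in the same order. Cd8b1 read 86.4 and 91.9 in the BTNL2 wells, 41.8 and 30.7 in the B7-2 wells, and 68.2 and 64.3 in the anti-CD3 wells. It rose 2.49-fold with BTNL2 added (limma adjusted p = 0.00103) and was not called for BTNL2 against anti-CD3 (limma adjusted p = 0.0702). Cd8a, the gene of the CD8 alpha chain, read 987 and 924 in the BTNL2 wells, 119 and 107 in the B7-2 wells, and 302 and 321 in the anti-CD3 wells. Eomes, which encodes a factor of cytotoxic cells that CD4 T cells can also express, read 1337 and 991 in the BTNL2 wells, 20.0 and 16.3 in the B7-2 wells, and 21.1 and 17.7 in the anti-CD3 wells. Ncr1, the gene of an NK cell receptor, read 4.75 to 6.62 on all arrays, near the nonspecific controls. Of 10 B cell markers, 7 rose and 1 fell in the BTNL2 against the B7-2 wells, and 0 rose and 7 fell in the B7-2 against the anti-CD3 wells. Their sum was 3342 and 3932 in the BTNL2 wells, 1731 and 1859 in the B7-2 wells, and 3859 and 3474 in the anti-CD3 wells. Its largest part was the marker Cd74, at 1873 and 2158, 863 and 1004, and 2044 and 1873 in the same order. The B cell factor gene Pax5 read 6.33 to 8.01 throughout. Ebf1, another B cell factor gene, was the marker that fell with BTNL2 added, to 49.6 and 61.5 in the BTNL2 wells, against 161 and 138 in the B7-2 wells (limma adjusted p = 0.000414). Against anti-CD3, the BTNL2 wells had 6 CD8 and NK markers higher and 0 lower (4 or 5 higher with any 1 array left out), and 1 B cell marker higher and 3 lower. Of those 3 lower B cell markers, Cd22 lost its call averaged over its probe sets (log2 change -0.40, against -0.70 in the full fit). Cd79b lost its call with the replicate block (log2 change -0.39). Without the first BTNL2 array these 2 changes were -0.46 and -0.29. The part of CD8, NK and B cells in the values of Bcl2l11 was not tested.

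The paralogs of Gadd45a and Sesn3, which were not among the picked genes, did not share one pattern. Gadd45b, an activation-induced stress gene, read 1206 and 1047 in the BTNL2 wells, 949 and 843 in the B7-2 wells, and 328 and 400 in the anti-CD3 wells. It rose 2.47-fold in the B7-2 wells over the anti-CD3 wells (log2 change 1.30 ± 0.13, limma adjusted p = 0.000873), and its change for BTNL2 against B7-2 was 0.33 ± 0.13 (limma adjusted p = 0.138, and 0.0243 when the variance prior followed intensity). Gadd45g, the cytokine-responsive member of the family, passed the test in none of the 3 comparisons (limma adjusted p of 0.172 to 0.739, and 0 unadjusted p under 0.05), but when the variance prior followed intensity limma called its change of 0.35 for BTNL2 against anti-CD3 (adjusted p = 0.0396).

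Sesn1, a target of both p53 and FOXO, read 352 and 329 in the BTNL2 wells, 261 and 296 in the B7-2 wells, and 515 and 558 in the anti-CD3 wells. It fell 1.93-fold with B7-2 (log2 change -0.95 ± 0.10, limma adjusted p = 0.00111), and its 3 probe sets gave changes of -0.95 to -0.88. Its change for BTNL2 against B7-2 was 0.29 ± 0.10 (limma adjusted p = 0.0985), and averaged over its probe sets it passed at 0.33 (limma adjusted p = 0.0311). Sesn2, a sestrin induced by p53 and by amino acid shortage, ran the other way. It read 72.5 and 57.1 in the BTNL2 wells, 115 and 104 in the B7-2 wells, and 38.7 and 33.1 in the anti-CD3 wells. Sesn2 rose 3.05-fold with B7-2 (log2 change 1.61 ± 0.14, limma adjusted p = 0.000579) and fell 1.70-fold in the BTNL2 wells against the B7-2 wells (log2 change -0.76 ± 0.14, limma adjusted p = 0.00974), a call that was lost without the first B7-2 array (log2 change -0.70).

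**Figure D2:**
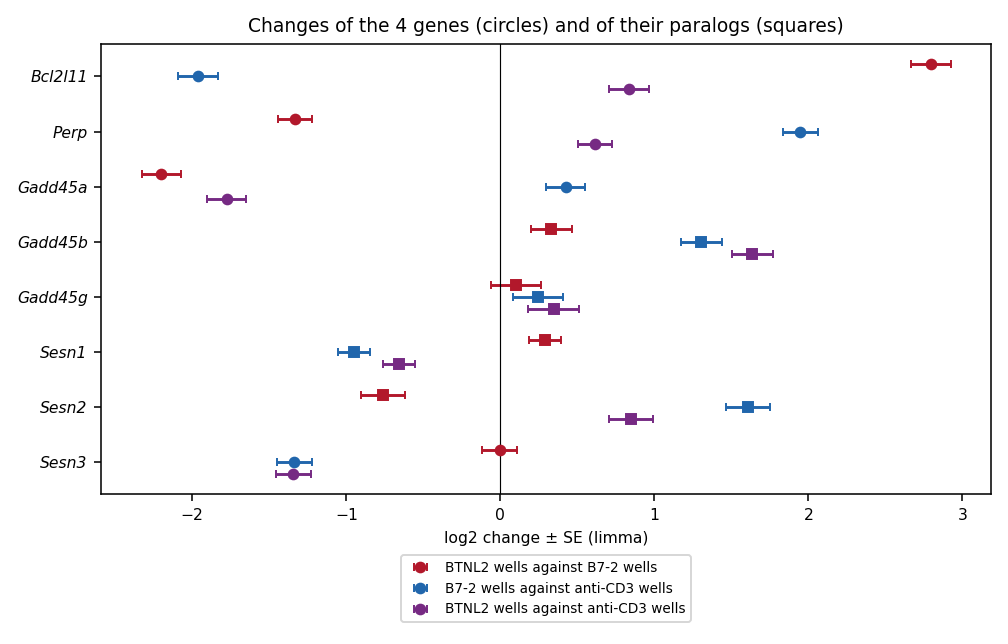
Log2 changes with their standard errors (horizontal axis) of Bcl2l11, Perp, Gadd45a and Sesn3 (circles, brightest probe set) and of the paralogs Gadd45b, Gadd45g, Sesn1 and Sesn2 (squares) in the 3 comparisons (colours), from 2 arrays per group. Bcl2l11 spans -1.96 to 2.79, and Sesn1 and Sesn2 lie on opposite sides of 0 in each comparison.

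Among genes known to be induced by FOXO factors, falls with B7-2 outnumbered rises. Leaving out Bcl2l11 and Sesn3, 15 were tested. For B7-2 against anti-CD3, 1 rose and 8 fell with a median log2 change of -0.44, where 11.2% of all genes rose and 13.3% fell with a median of -0.01. Bcl6, the repressor that specifies follicular helper T cells, fell 5.47-fold (log2 change -2.45 ± 0.15, limma adjusted p = 0.000193), or by 1.30 on the log2 scale averaged over its probe sets. Trp53inp1, which encodes a nuclear stress protein that assists p53, fell 3.29-fold, to 642 and 613 in the B7-2 wells, against 2164 and 1972 in the anti-CD3 wells (limma adjusted p = 0.00104). Trp53inp2 fell 2.46-fold (limma adjusted p = 0.000377) and Ccng2, an unusual cyclin of arrested cells, 2.34-fold (limma adjusted p = 0.00155).

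With BTNL2 added to B7-2, 4 of the 15 FOXO-induced genes rose and 2 fell, with a median of 0.18, where 9.52% of all genes rose and 10.8% fell with a median of -0.01. Trp53inp1 rose 2.18-fold, to 1683 and 1110 in the BTNL2 wells (log2 change 1.12 ± 0.18, limma adjusted p = 0.00567). Klf2, a quiescence factor of T cells, rose 2.08-fold (limma adjusted p = 0.00229) and Bcl6 1.90-fold (limma adjusted p = 0.00502, log2 change 0.42 averaged over its probe sets). The insulin receptor gene Insr fell 2.44-fold (log2 change -1.29 ± 0.12, limma adjusted p = 0.000534, and -0.58 averaged over its probe sets). Against anti-CD3 alone, 1 rose and 8 fell in the BTNL2 wells with a median of -0.50, where 14.2% of all genes rose and 16.2% fell with a median of -0.01. Bcl6 was 2.88-fold lower, Trp53inp2 3.03-fold lower, Ccng2 2.08-fold lower and Insr 3.32-fold lower than with anti-CD3 alone (limma adjusted p of 5.72e-05 to 0.00172). Averaged over the probe sets these log2 changes were -0.88 for Bcl6, -0.56 for Ccng2 and -0.65 for Insr.

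Genes known to be induced by p53 went both ways. Leaving out Perp and Gadd45a, 28 were tested, and Sesn1 and Trp53inp1 stand in both this list and the FOXO list. For B7-2 against anti-CD3, 9 rose and 8 fell with a median of 0.03, where 11.2% of all genes rose and 13.3% fell. Leaving out any 1 array lowered the counts of 9 and 8 to between 5 and 7 and between 4 and 5. Sesn2 and Plk2, a stress-induced polo-like kinase gene, rose, Plk2 2.46-fold (log2 change 1.30 ± 0.19, limma adjusted p = 0.00334). Fas, the death receptor gene, fell 2.10-fold to 230 and 240 in the B7-2 wells, against 473 and 516 in the anti-CD3 wells (limma adjusted p = 0.0005). Cdkn1a, the p21 cell cycle inhibitor gene and the classic p53 target, rose 1.60-fold (log2 change 0.68 ± 0.09, limma adjusted p = 0.00252). Mdm2, which encodes the p53 ubiquitin ligase, rose 1.26-fold (limma adjusted p = 0.0309), a call lost when any 1 of the 4 arrays was left out.

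With BTNL2 added to B7-2, 4 of the 28 p53-induced genes rose and 4 fell, with a median of 0.08, where 9.52% of all genes rose and 10.8% fell. Plk2 fell 3.88-fold, to 21.9 and 33.5 in the BTNL2 wells, against 111 and 99.8 in the B7-2 wells (limma adjusted p = 0.000539). Fas rose 2.07-fold, to 489 and 482 in the BTNL2 wells (log2 change 1.05 ± 0.09, limma adjusted p = 0.000323). Cdkn1a (log2 change -0.32 ± 0.09, limma adjusted p = 0.0509, and 0.00111 to 0.0465 under 5 other settings) and Mdm2 (log2 change 0.09 ± 0.09, limma adjusted p = 0.572) did not pass. Against anti-CD3 alone, 9 rose and 8 fell with a median of 0.01 (4 to 8 rose and 4 to 7 fell with 1 array left out). Of all genes, 14.2% rose and 16.2% fell there. Cdkn1a was 1.28-fold higher there (limma adjusted p = 0.0249), a call lost without either anti-CD3 array or the first BTNL2 array (log2 changes 0.39, 0.33 and 0.28). Mdm2 was called higher too (log2 change 0.42). That call was lost averaged over its probe sets (0.28) and without the first anti-CD3 or the first BTNL2 array (0.38 each). Tnfrsf10b, the TRAIL receptor gene, was 1.79-fold higher (limma adjusted p = 0.00228, log2 change 0.41 averaged over its probe sets), Ddit4, which encodes an mTORC1 inhibitor induced by hypoxia, 1.73-fold lower (limma adjusted p = 0.00071) and Sertad1 1.70-fold lower (limma adjusted p = 0.0014).

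**Figure D3:**
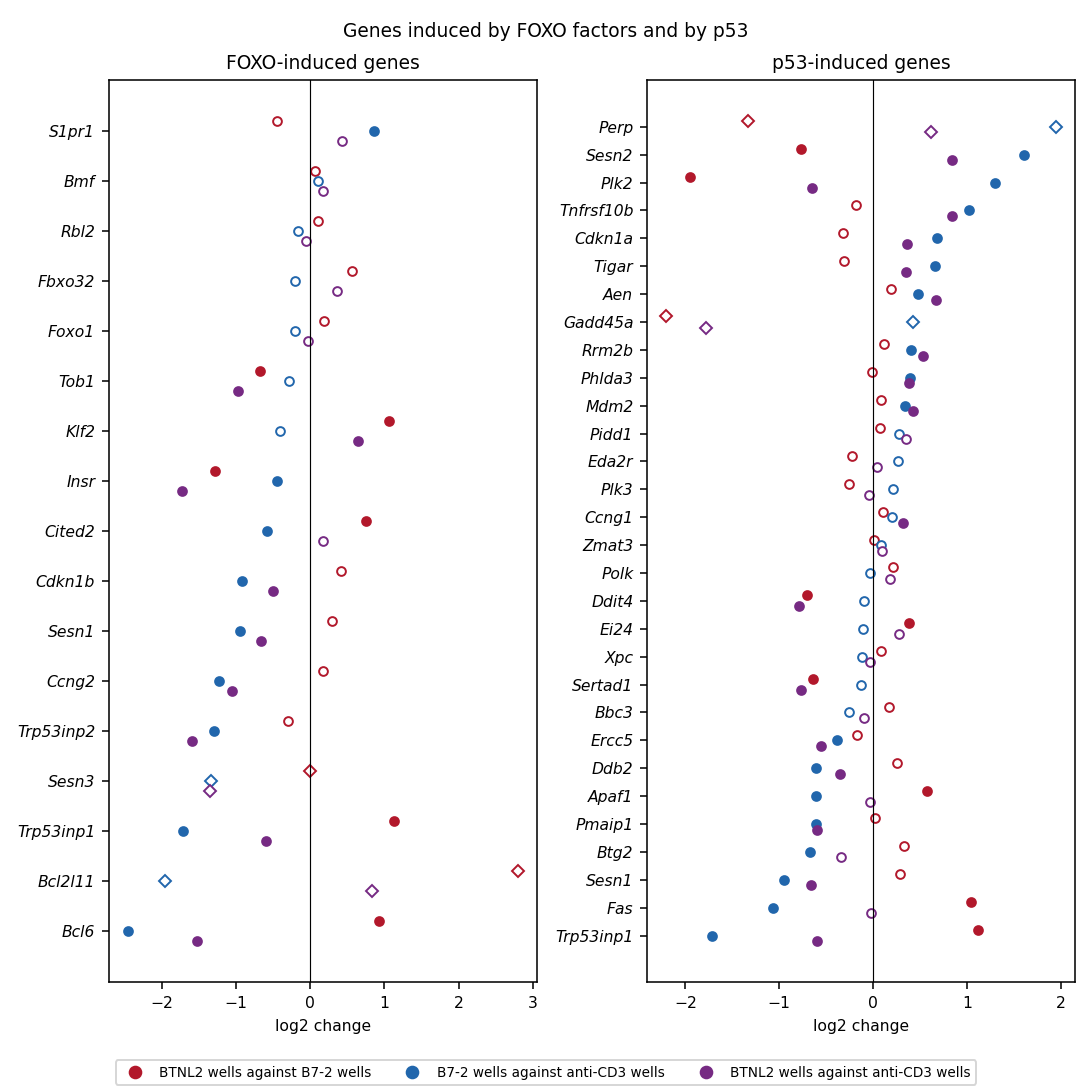
Log2 changes (horizontal axis) of FOXO-induced genes (left) and p53-induced genes (right) in the 3 comparisons (colours). Filled circles passed limma's test at an adjusted p under 0.05, open circles did not, and diamonds are Bcl2l11, Sesn3, Perp and Gadd45a, drawn without their calls; genes are ordered by the B7-2 change. Most blue circles of the FOXO list lie left of 0, whereas those of the p53 list lie on both sides.

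Among the regulators, Foxo1 and Foxo3, the main FOXO factors of T cells, did not pass the test. Foxo1 read 30.5 and 34.0 in the BTNL2 wells, 24.98 and 32.28 in the B7-2 wells, and 37.5 and 28.7 in the anti-CD3 wells, and both genes passed in none of the 3 comparisons (limma adjusted p of 0.0689 to 0.933, of which 1 had an unadjusted p under 0.05). When the variance prior followed intensity, limma called Foxo3 lower, by -0.24 for B7-2 against anti-CD3 (adjusted p = 0.0352) and by -0.32 for BTNL2 against anti-CD3 (adjusted p = 0.00526). The second of these was also called with dim genes left out (limma adjusted p = 0.0462). Averaged over the probe sets of Foxo3 it was -0.16 and did not pass (limma adjusted p = 0.39). Of 10 genes of FOXO factors and the kinases upstream of them, 1 rose and 2 fell with B7-2, 2 rose and 1 fell with BTNL2 added to it, and 4 rose and 1 fell in the BTNL2 wells against the anti-CD3 wells. Sgk1, whose kinase inactivates FOXO proteins, rose 1.78-fold in the B7-2 wells (limma adjusted p = 0.00818) and 2.56-fold in the BTNL2 wells (limma adjusted p = 0.000713) over the anti-CD3 wells. Pik3r1, the gene of a regulatory PI3 kinase subunit, read 648 and 593 in the BTNL2 wells, 247 and 222 in the B7-2 wells, and 359 and 342 in the anti-CD3 wells. It rose 2.64-fold in the BTNL2 wells over the B7-2 wells (limma adjusted p = 0.000134) and fell 1.5-fold with B7-2 (limma adjusted p = 0.00608, log2 change -0.38 averaged over its probe sets). Foxo4 was 1.91-fold lower in the BTNL2 than in the anti-CD3 wells (limma adjusted p = 0.000418, log2 change -0.47 averaged over its probe sets). Of 11 genes of the p53 family and its regulators, 2 rose and 0 fell with B7-2, 2 rose and 0 fell with BTNL2 added, and 4 rose and 0 fell in the BTNL2 wells against the anti-CD3 wells. With any 1 array left out, 1 rose with B7-2, 0 or 1 with BTNL2 added, and 1 to 3 against anti-CD3. In the full fit, 24.5%, 20.4% and 30.4% of all genes were called in these 3 comparisons, for both lists of regulators alike. Among them Chek1, a DNA damage checkpoint kinase gene, rose 1.5-fold with B7-2 (limma adjusted p = 0.00488) and 1.61-fold in the BTNL2 wells over the anti-CD3 wells (limma adjusted p = 0.00171).

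BIM acts by binding BCL2 proteins, and Bcl2, the gene of a main partner of BIM in T cells, was lowest in the B7-2 wells. Bcl2 read 1539 and 1353 in the BTNL2 wells, 904 and 919 in the B7-2 wells, and 1592 and 1489 in the anti-CD3 wells. It fell 1.69-fold with B7-2 (log2 change -0.76 ± 0.10, limma adjusted p = 0.00214) and rose 1.58-fold when BTNL2 was added (log2 change 0.66 ± 0.10, limma adjusted p = 0.00387). BTNL2 and anti-CD3 wells overlapped (log2 change -0.09 ± 0.10, limma adjusted p = 0.555). Bcl2l2, which encodes the related survival protein BCL-W, fell 2.32-fold in the BTNL2 wells against the B7-2 wells (limma adjusted p = 0.00145), a call that was lost averaged over its probe sets (log2 change -0.38). Of 6 anti-apoptotic BCL2 genes tested, 1 rose and 1 fell in each of the 3 comparisons, where 20.4% to 30.4% of all genes were called.

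Of 11 pro-apoptotic BCL2 genes tested besides Bcl2l11, 1 rose and 3 fell with B7-2, 0 rose and 2 fell with BTNL2 added to it, and 1 rose and 4 fell in the BTNL2 wells against the anti-CD3 wells. Of all genes, 24.5%, 20.4% and 30.4% were called in these comparisons. Bnip3l and Bnip3, genes of mitochondrial proteins induced by hypoxia, fell 2.07-fold and 1.67-fold in the BTNL2 wells against the B7-2 wells (limma adjusted p = 0.00175 and 0.0102). Bnip3l read 718 and 936 in the BTNL2 wells, 1736 and 1658 in the B7-2 wells, and 2973 and 2945 in the anti-CD3 wells. Bid, which links death receptors to mitochondria, rose 1.61-fold with B7-2 (limma adjusted p = 0.00239, log2 change 0.36 averaged over its probe sets). Pmaip1, the p53-induced BH3-only gene NOXA, fell 1.53-fold with B7-2 (limma adjusted p = 0.0176), a call lost without the first anti-CD3 array (log2 change -0.43), the first B7-2 array (-0.57) or the second B7-2 array (-0.65).

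Among 13 listed genes of caspases and inhibitors of apoptosis, 1 rose and 5 fell with B7-2, and 4 rose and 2 fell with BTNL2 added. In the BTNL2 wells against the anti-CD3 wells, 3 rose and 3 fell. Averaged over all probe sets the first of these counts was 1 and 2, and with any 1 array left out 0 or 1 rose in the second. The shares of all genes called were 24.5%, 20.4% and 30.4%, in the same order. Casp6, an executioner caspase gene, read 105 and 185 in the BTNL2 wells, 449 and 446 in the B7-2 wells, and 456 and 453 in the anti-CD3 wells. It fell 3.21-fold in the BTNL2 wells against the B7-2 wells (log2 change -1.69 ± 0.23, limma adjusted p = 0.00259). Cflar, which encodes the caspase 8 inhibitor cFLIP, was 1.79-fold lower with B7-2 (limma adjusted p = 0.00223), but its change turned to 0.25 averaged over its probe sets.

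**Figure D4:**
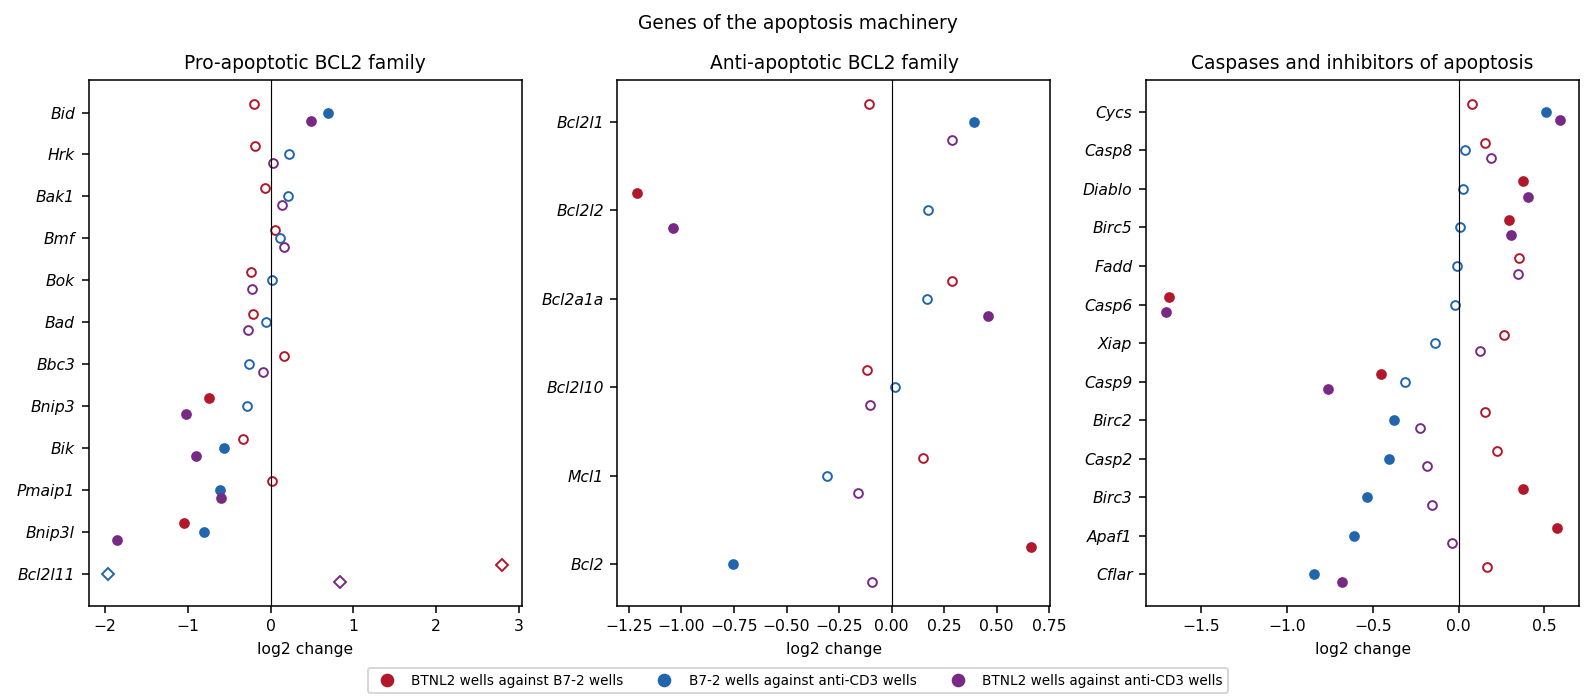
Log2 changes (horizontal axis, with a range of its own in each panel) of pro-apoptotic BCL2 genes, anti-apoptotic BCL2 genes, and caspases with inhibitors of apoptosis in the 3 comparisons (colours). Filled circles passed limma's test at an adjusted p under 0.05, open circles did not, and the diamond is Bcl2l11, drawn without its calls. Bcl2l11 and Bcl2 both lie left of 0 for B7-2 against anti-CD3 and right of it for BTNL2 against B7-2.

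Sestrins act on mTORC1 through the GATOR complexes. Of 13 genes of these complexes and of mTORC1 tested, 2 rose and 1 fell with B7-2, 1 rose and 3 fell with BTNL2 added to it, and 2 rose and 4 fell in the BTNL2 wells against the anti-CD3 wells. With any 1 array left out, 0 or 1 rose in the first of these, 1 or 2 fell in the second and 1 rose in the last. Among all genes 24.5%, 20.4% and 30.4% were called, in the same order. Rragd, the gene of a Rag GTPase that recruits mTORC1 to lysosomes, read 1090 and 761 in the BTNL2 wells, 218 and 238 in the B7-2 wells, and 371 and 304 in the anti-CD3 wells. It was 3.99-fold higher in the BTNL2 than in the B7-2 wells (limma adjusted p = 0.0004, log2 change 0.94 averaged over its probe sets). Castor2, a paralog of the arginine sensor gene Castor1, fell 2.68-fold with B7-2 (limma adjusted p = 0.00032, log2 change -0.94 averaged over its probe sets).

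Perp belongs to the PMP22 family and is a part of desmosomes. Of 9 PMP22-family and desmosome genes, 0 rose and 3 fell with B7-2, and 1 rose and 1 fell with BTNL2 added to it. In the BTNL2 wells against the anti-CD3 wells, 2 rose and 3 fell. For this list and the marker lists below, the shares of all genes called were 24.5%, 20.4% and 30.4% in these comparisons. Pkp2, the plakophilin 2 gene, read 10.8 and 13.7 in the BTNL2 wells, 121 and 128 in the B7-2 wells, and 204 and 172 in the anti-CD3 wells, a 10.2-fold fall with BTNL2 added (log2 change -3.36 ± 0.14, limma adjusted p = 2.02e-05). Emp1, a PMP22 relative, fell 1.91-fold with B7-2 (limma adjusted p = 0.00483), and Jup, the plakoglobin gene, 2.92-fold (limma adjusted p = 0.00255). Of 7 epithelial markers, 0 rose and 1 fell with B7-2, 2 rose and 1 fell with BTNL2 added, and 1 rose and 2 fell in the BTNL2 wells against the anti-CD3 wells, with summed intensities of 344 and 210 in the BTNL2 wells, 169 and 139 in the B7-2 wells, and 208 and 215 in the anti-CD3 wells. Cdh1, the E-cadherin gene, read 233 and 102 in the BTNL2 wells, 5.88 and 4.97 in the B7-2 wells, and 4.95 and 5.04 in the anti-CD3 wells, where it lay at the level of the nonspecific controls (limma adjusted p = 0.000123 with BTNL2 added). Krt18, a keratin gene, fell to 10.7 and 13.2 in the BTNL2 wells, against 80.8 and 63.1 in the B7-2 wells (limma adjusted p = 6.42e-05). Epcam read 49.0 and 45.5 in the BTNL2 wells, 26.1 and 21.3 in the B7-2 wells, and 65.6 and 73.5 in the anti-CD3 wells. The keratin gene Krt8 and the claudin gene Cldn4 read at most 8.27 and 8.90 on all arrays, and the part of epithelial cells in the values of Perp was not tested. Of 9 myeloid and dendritic cell markers, 0 rose and 1 fell in each comparison, with sums of 174 and 159 in the BTNL2 wells, 203 and 188 in the B7-2 wells, and 237 and 259 in the anti-CD3 wells.

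The 9 CD4 T cell markers gave sums of 21394 and 21337 in the BTNL2 wells, 21246 and 21524 in the B7-2 wells, and 25988 and 25621 in the anti-CD3 wells. Of these, 0 rose and 3 fell with B7-2, 1 rose and 2 fell with BTNL2 added to it, and 1 rose and 5 fell in the BTNL2 wells against the anti-CD3 wells. The rise was that of Thy1, by 1.28-fold with BTNL2 added, and with any 1 array left out 0 markers rose in both of these comparisons. With B7-2, 2 fell when any 1 array was left out. Among all genes 24.5% were called with B7-2, 20.4% with BTNL2 added and 30.4% for BTNL2 against anti-CD3. Cd28, the gene of the B7-2 receptor, read 628 and 574 in the BTNL2 wells, 963 and 1060 in the B7-2 wells, and 1665 and 1548 in the anti-CD3 wells. Cd4 was 1.44-fold lower in the BTNL2 than in the anti-CD3 wells (limma adjusted p = 0.00513). Cd3d fell 1.28-fold with B7-2 (limma adjusted p = 0.0249).

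The 4 genes were also set against all others by the Euclidean distance between their log2 patterns over the 6 arrays, each centred on its own mean and with 1 probe set per gene. The genes nearest to Bcl2l11 were Ipcef1, Gbp7, Pou6f1, Sorl1 and Klrd1, at distances of 0.44 to 0.57, where the median gene lay at 2.92. Klrd1, which encodes the receptor chain CD94, is also one of the CD8 and NK cell markers above. Perp was nearest to Il13, Phlda1, Sytl3, Ccn4 and Zbtb32, at 0.35 to 0.50 against a median of 2.04. Il13, the gene of a Th2 cytokine, was 2.24 higher with B7-2 and changed by -1.41 with BTNL2 added to it, on the log2 scale. The nearest genes to Gadd45a were Dennd3, Ncs1, Asns, Marveld1 and Cpne6, at 0.35 to 0.43 against a median of 2.37. Asns, the asparagine synthetase gene, changed by -2.25 in the BTNL2 wells against the B7-2 wells and by 0.63 in the B7-2 wells against the anti-CD3 wells, on the log2 scale. For Sesn3 they were Natd1, Fgf2, Ip6k1, Ypel5 and Zfp629, at 0.09 to 0.25 against a median of 1.60. Among the 4 genes themselves the closest pair was Gadd45a and Sesn3 at 2.34 and the farthest Bcl2l11 and Gadd45a at 5.005. Even the closest pair lay about as far apart as Gadd45a and its median gene (2.37), and farther than Sesn3 and its median gene (1.60). Natd1 matched Sesn3 most closely, with changes of -1.33 for B7-2 against anti-CD3 and 0.01 for BTNL2 against B7-2, and these likenesses rest on 6 arrays of 3 groups.

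**Figure D5:**
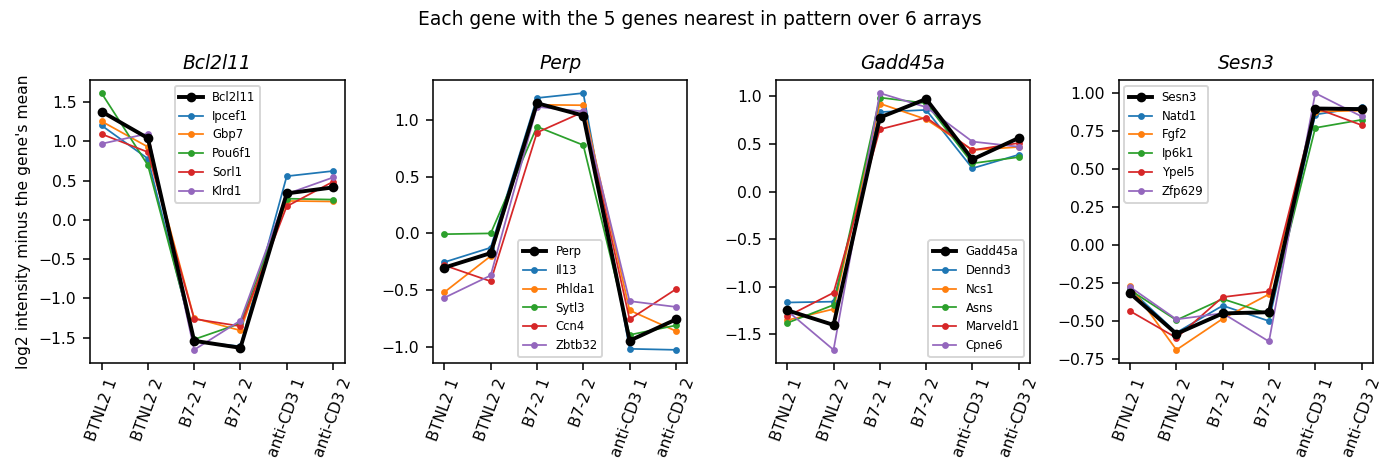
Log2 intensity minus each gene's own mean (vertical axis) on the 6 arrays (horizontal axis) for Bcl2l11, Perp, Gadd45a and Sesn3 (black) with the 5 genes nearest to each in pattern (colours). Lines only join the arrays of a gene. Bcl2l11 and its neighbours dip on the B7-2 arrays, Perp and its neighbours peak there, the Gadd45a group is low on the BTNL2 arrays and the Sesn3 group is high on the anti-CD3 arrays.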

How the data were processed

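Total RNA (50 ng) of 6 cultures was amplified with a NuGen Ovation system, labelled with biotin and hybridised to 1 array per culture, per the labels' protocols. The authors deposited probe set intensities on a linear scale, made with RMA per the submitters' processing notes; its version is not given in the sources used here. RMA subtracts background and equalises the arrays' distributions. A shift shared by most genes would therefore be hidden, and changes of dim probe sets are understated.

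The values were log2 transformed. Of 45141 probe sets, 104 were controls, 28898 had 1 symbol by the platform annotation, 551 several and 15588 none; 28689 symbols were updated by Entrez identifier with the GRCm38.p6 gene table. A gene is its probe set of highest mean. The test was limma's (version 3.58.1, R 4.3.3, lmFit and eBayes, 3 residual and 4.02 prior degrees of freedom), all 6 arrays in 1 fit, two-sided, Benjamini-Hochberg adjusted over the 17097 genes, or over 45037 probe sets for the 4 genes. With 2 arrays per group, precision is limited by their number. The procedure was tested on simulated data.

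The 4 genes and 15 gene lists (158 of 182 listed genes measured; the others are not analysed here) were chosen with earlier results of these data known. Named genes were up to 4 per list and comparison, those of largest change among called genes without overlap between the groups' arrays, from which the text gives a selection, plus the paralogs, Foxo1, Foxo3, Mdm2, Cdkn1a and Bcl2; for likeness, the 5 nearest genes without clone or predicted names. Trp53 was also to be named and is not analysed here. Ncr1, Pax5, Krt8 and Cldn4 fall outside the rule. Cd4 meets it only for BTNL2 against anti-CD3, and Cd3d only for B7-2 against anti-CD3. All of these were chosen as defining markers after their values were seen. Nkg7 and Cd74 are given as the largest parts of their marker sums. Alternatives changed the variance prior, the arrays in the fit, a filter on dim genes (40th percentile), the scaling, the probe sets per gene and the replicate block, and left out each array in turn.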

Additional observations from a re-analysis of the deposited data

How the results depend on the processing

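Bcl2l11, Perp and Gadd45a kept the direction of each change under all alternatives run, and so did Sesn3 against anti-CD3. This is no support for these changes, since most alternatives could not turn a direction. The variance prior, the dim filter, the replicate block and a fit of only the compared groups leave the size of a change as it is. Leaving out 1 array cannot turn a change between groups that do not overlap, and Perp and Gadd45a have only 1 probe set to average. Averaged over their probe sets, Bcl2l11 changed by -1.62 for B7-2 against anti-CD3 and by 2.49 for BTNL2 against B7-2, and Sesn3 by -1.02 and, for BTNL2 against anti-CD3, by -1.08. With 1 array left out at a time, the changes for BTNL2 against B7-2 were 2.62 to 2.96 for Bcl2l11, -1.40 to -1.27 for Perp, -2.30 to -2.10 for Gadd45a and -0.14 to 0.13 for Sesn3. For BTNL2 against anti-CD3 they were 0.67 to 1.00, 0.52 to 0.71, -1.89 to -1.66 and -1.48 to -1.21, and for B7-2 against anti-CD3 -2.00 to -1.92, 1.85 to 2.04, 0.31 to 0.54 and -1.34 to -1.33, in the same order of genes. Genes called numbered 4190 for B7-2 against anti-CD3 and 2454 to 2722 without 1 array, 3482 and 2142 to 2808 for BTNL2 against B7-2, and 5197 and 3726 to 4250 for BTNL2 against anti-CD3, where fewer arrays were fitted. The other settings gave 3765 to 5128, 3015 to 4412 and 4827 to 5927. Of the list counts, those for BTNL2 against B7-2 that moved by over 1.5 times included FOXO-induced genes higher (4, and 3 to 7 over all settings), p53-induced genes higher (4, and 2 to 7) and lower (4, and 3 to 7), and caspase genes higher (4, and 0 to 4). For B7-2 against anti-CD3 they included p53-induced genes higher (9, and 5 to 10) and lower (8, and 4 to 8), pro-apoptotic genes lower (3, and 1 to 4) and caspase genes lower (5, and 2 to 6), and for BTNL2 against anti-CD3 p53-induced genes higher (9, and 4 to 10) and lower (8, and 4 to 8) and p53 regulators higher (4, and 1 to 4). Small counts of the GADD45 and sestrin, FOXO factor, anti-apoptotic, GATOR and PMP22 lists moved as well. So did those of the CD4, B cell, myeloid and epithelial marker lists. Examples are GATOR genes lower with B7-2 (1, and 1 to 4) and FOXO factor genes higher with B7-2 (1, and 1 to 3). Same-numbered arrays deviated from their group means with correlations of -0.064 to -0.001, so the numbers were not taken to pair the cultures. With the replicate block, 3765, 3160 and 4827 genes were called. Signs turned for Cflar averaged over its probe sets (0.25 for B7-2 and 0.02 for BTNL2 against anti-CD3) and for genes that were not called. Those were Mdm2 (-0.09, same setting), and, without 1 array, Foxo1 (-0.01 to 0.36 for BTNL2 against B7-2, and -0.22 to 0.17, with 0.05, against anti-CD3), Foxo3 (-0.17 to 0.01, with 0.00) and Gadd45g (-0.10). Dim probe sets, such as those of Bcl2l11 in the B7-2 wells, lie near the nonspecific controls, which limits their changes; the cause of the differences between settings was not tested.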
